A study of Mus musculus with 56 samples.

Results

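The 38 genes described here encode proteins of blood clotting, its inhibitors and complement that the liver secretes into plasma. They were taken by symbol from the RNA-seq table, where each was found once among 21888 gene symbols. The 14 livers sequenced, 1 per mouse, were all on a 129Sv/J strain background. Uninjected mice with loxP sites around miR-122 (day 0) were compared with floxed mice 21 and 45 days after AAV-Cre (3 mice each), and with 1 mouse each at 100 and 200 days. Another 3 livers came from miR-122 knockout mice. Cre was driven by the Ef1a promoter, which is not restricted to hepatocytes, and the day 0 mice were not injected, so vector and excision cannot be told apart. Age and sex are not given in the labels. All comparisons with day 0 share its 3 mice. Nothing in the labels ties the letters A, B and C to litters or batches, so p-values measure the spread between these mice.

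Hepatocytes make most circulating clotting factors and complement proteins, and secrete many of them as inactive zymogens that are cut one after another. The clotting cascade ends with thrombin and fibrin, plasmin dissolves fibrin, and serpins and the protein C system hold the cascade back. Complement is started by antibody, by sugars bound by mannose-binding lectins or spontaneously, meets at C3, and ends with the membrane attack complex of C5b to C9. miR-122 is the most abundant microRNA of hepatocytes. None of the 38 was on the study's list of 129 predicted miR-122 targets. Klkb1 and Masp1 were on its let-7 list and Serpinc1 on its miR-410 list, and these lists may be held only in part.

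Small RNA libraries of the floxed groups checked the excision. miR-122 made up 73.3%, 59.2% and 66.7% of listed microRNA reads at day 0, 12.5%, 13.2% and 8.22% at day 21, and 0.908%, 0.383% and 1.23% at day 45. It was 4.46% in the mouse at day 100 and 19.1% in the mouse at day 200. No small RNA library of the knockout mice was analysed here, and the miR-122 row of the RNA-seq table is listed at 0 in all 14 libraries, so it checks nothing. The transcript of Aldoa, a well-known miR-122 target, was at 62.1 to 73.1 FPKM at day 0 and at 245 to 500 in the knockouts.

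Values are FPKM, which divide the fragments of a transcript by its length and by the size of the library, so levels can be compared between genes, and sequencing depth is not known from them. All 38 genes had a value above 0 in every library and passed the filter of a mean of at least 1 FPKM. Some other secreted hepatocyte genes did not: Alb is listed at 0 in 14 of 14 libraries, Trf in 11, Serpina1a in 10 and Ahsg in 6. A value of 0 in such a gene can be a failed estimate rather than a level. Tests are limma fits on log2(FPKM + 1) over 11354 genes, two-sided, with Benjamini-Hochberg adjustment over all genes tested and a threshold of 0.05. A change called higher or lower below passed that test, and SE is the standard error from the fit.

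Some libraries stood apart from the rest of their group. The 4 libraries day 0 B, day 21 C, day 45 C and knockout C held transcripts of 4 Y-linked genes at a summed 51.1 to 66.8 FPKM, and the other 10 held at most 0.061. In the knockout mice A and B the difference from day 0 rose with the GC content of the transcript. Spearman's rho across 11090 genes, which are not independent of each other, was 0.65 and 0.61 there, −0.07 in knockout C, and −0.19 to 0.24 in the others. With transcript length in place of GC, rho was −0.52 in day 0 A, 0.39 and 0.21 in day 0 B and C, and −0.33 to 0.30 in the other libraries, and the part of length in the results was not tested. In the knockout group the library with Y-linked transcripts is also the one without the GC relation, so these features cannot be told apart there.

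At day 0 the clotting and complement genes spanned a wide range of levels. The highest mean was 4068 ± 655 FPKM for Fgb and the lowest 24.1 ± 1.32 for Pros1 (SD, n = 3). A mean of at least 1000 FPKM was found for 9 genes (Fgb, Fgg, Fga, C3, Vtn, Kng1, Serpinc1, Plg and F2), 23 lay between 100 and 1000, and 6 were below 100 (C6, F7, C2, F11, Masp1 and Pros1). Neighbors in that order often overlapped: the fibrinogen chains Fgb (3476 to 4772 FPKM) and Fgg (2922 to 3904) shared part of their range. Together the 38 genes took 4.63% to 5.79% of all listed FPKM at day 0, 4.05% to 5.12% at day 21, 3.86% to 4.16% at day 45, 4.59% and 4.06% at days 100 and 200, and 3.93% to 4.73% in the knockouts. The totals keep values of 0 as listed, also for Trf, Serpina1a and Ahsg, which are at 0 in only some libraries. The shares are therefore uncertain and may not be comparable between groups.

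**Figure D1:**
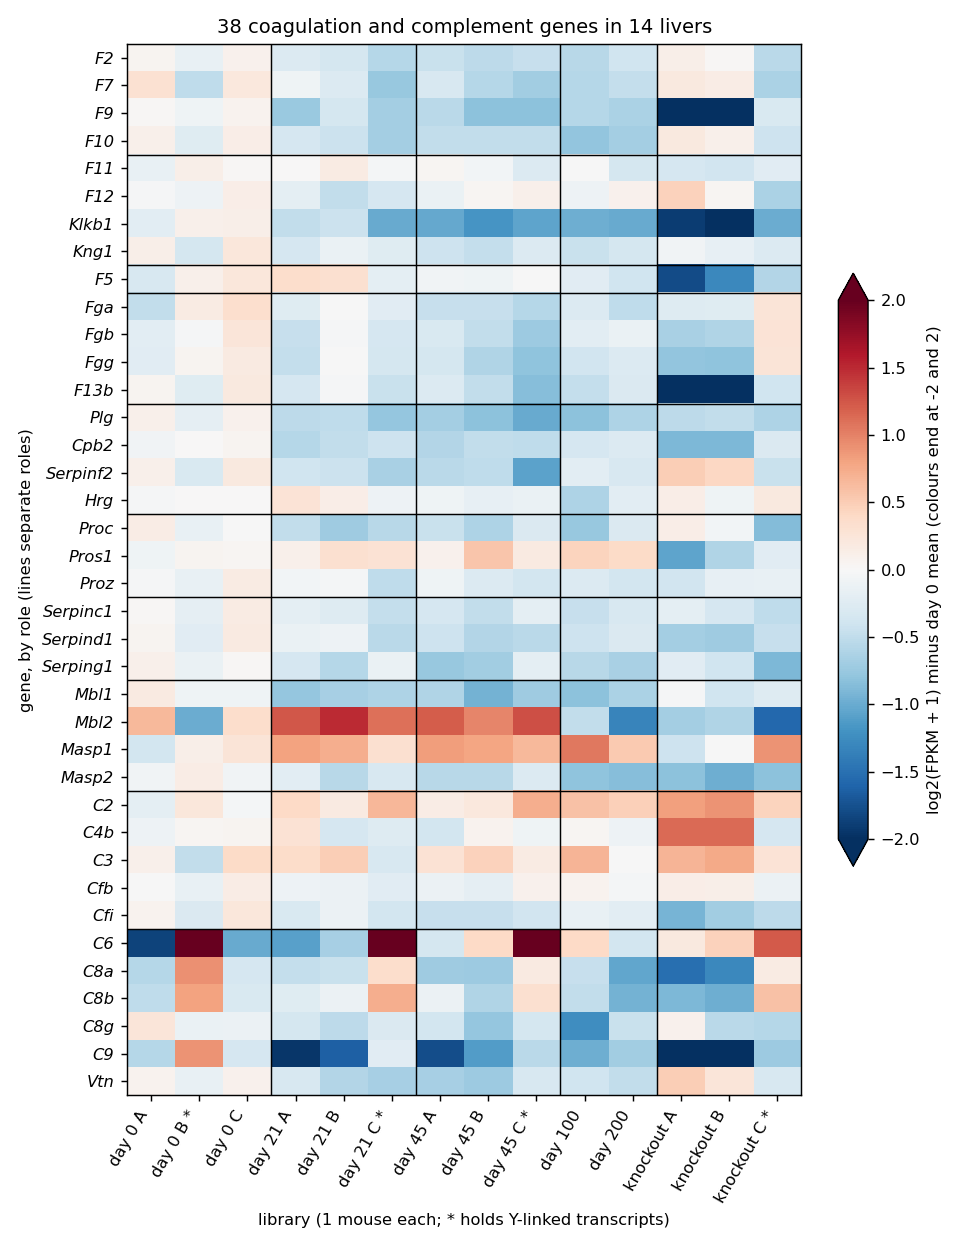
Log2(FPKM + 1) of each of the 38 genes in each of the 14 livers, minus the gene's day 0 mean; rows are ordered by role, columns by group, and stars mark the 4 libraries with Y-linked transcripts. Blue prevails after day 0, Mbl2 is red in all 6 livers of days 21 and 45, C6 is red in each starred library, and F9, F13b and C9 are darkest in knockouts A and B.

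After excision the set sat lower than at day 0, while the typical gene sat slightly higher. At day 45, 31 of 38 genes had a negative change, the median log2 fold change was −0.46, and that of all genes was 0.20. Klkb1, Plg, Mbl1, Cpb2, Serpind1 and Masp2 fell (6 genes) and 1 gene rose (Mbl2), where 3.01% of all genes fell and 23.7% rose (26.7% together). Already at day 21 the median was −0.27 against 0.06 for all genes, with 28 of 38 negative. Plg and Mbl1 fell then and none rose, against 1.41% and 6.25% of all genes (7.66% together); Klkb1 (−0.64) and Mbl2 (1.28) had similar or larger changes that missed the threshold. At days 100 and 200 together the median was −0.39 against 0.31. Klkb1, C8g, Masp2, F10, Mbl1 and Plg fell (6 genes) and none rose, against 3.25% and 28.5% of all genes. In bulk liver, fewer cells of a type and less RNA per cell cannot be told apart.

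Counted by mice instead of by the fit, 20 of 38 genes had all 3 day 45 mice below all 3 day 0 mice, against 9.37% of all genes, and 3 (Pros1, Mbl2 and Masp1) had all above, against 40.5%. At day 21 the counts were 15 below and 3 above (13.1% and 25.2% of all genes). At days 100 and 200 they were 20 and 3 (11.6% and 52.9%). The median of all genes moved by 0.20 at day 45 and by 0.31 at days 100 and 200. With each library centered on its median, 15 genes were lower and none higher at day 45, against 6.42% and 15.2% of all genes. At days 100 and 200 that centering gave 16 lower and none higher, against 8.03% and 16.3%. Scaling libraries to the same sum gave 6 lower and 1 higher at both times, against 2.89% and 23.3% of all genes at day 45, and 2.44% and 31.0% later. Those sums also keep the values listed at 0. Leaving out 1 mouse left 3 lower genes at day 45 without day 0 C, day 45 A or day 45 B (against 1.97%, 2.2% and 1.29% of all genes) and 1 at the late times without the day 100 mouse (0.653%). At day 21 it left 1 without day 0 C (0.662%) and none without any of the other 5 mice (0.362% to 1.27%). All groups share 1 estimate of the spread, and without knockouts A and B, which differed from knockout C, the same changes gave 16 lower and 2 higher genes at day 45, 7 and 1 at day 21, and 10 and 2 at days 100 and 200. In that fit more of all genes were called too: 5.89% lower and 32.6% higher at day 45, 4.90% and 12.1% at day 21, and 5.74% and 38.7% at days 100 and 200.

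**Figure D2:**
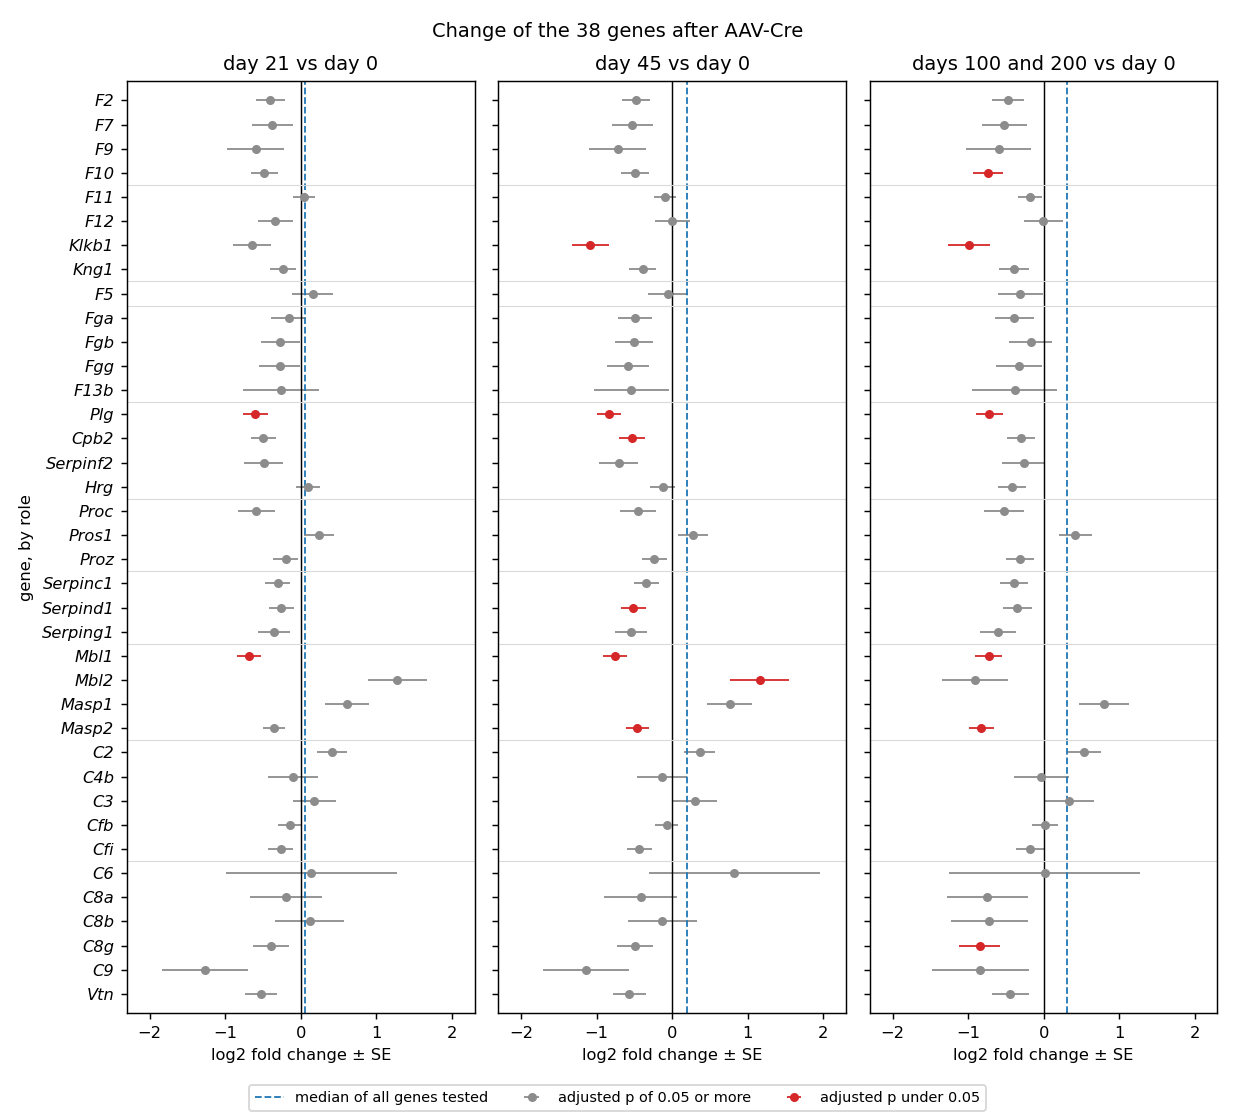
Log2 fold change with its SE of the 38 genes on day 21 (left), day 45 (middle) and days 100 and 200 (right), each against day 0; red points have an adjusted p under 0.05 and the dashed line is the median of all genes tested (0.06, 0.20 and 0.31). Most points lie left of 0, Mbl2 turns from 1.16 at day 45 to −0.91 late, and C6, C9 and Mbl2 have wide errors.

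Marker genes of other cell types were higher in the same livers. At day 45, 11 of 11 macrophage markers tested were higher, as were 9 of 10 stellate and fibroblast, 8 of 10 lymphocyte, 5 of 6 cholangiocyte and 4 of 10 endothelial markers. Summed macrophage markers were at 259 to 469 FPKM at day 0 and at 919 to 1036 at day 45. Summed cholangiocyte markers were at 50.2 to 65.3 FPKM at day 0 and at 411 to 1344 at day 45. Of 20 other secreted hepatocyte genes, 17 could be tested at day 45, of which 4 fell and none rose. Of 16 acute phase genes, which hepatocytes also secrete, 6 rose and none fell at day 45. Among all genes 23.7% rose and 3.01% fell at that time. The part of these markers in the changes of the clotting and complement genes was not tested.

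Klkb1 and F11 encode plasma prekallikrein and factor XI, close relatives that lie side by side on chromosome 8 (mm9 chr8:46354806-46380189 and chr8:46326523-46347385), but only Klkb1 was called. Klkb1 was at 112, 139.7 and 141 FPKM at day 0, 92.0, 96.4 and 64.5 at day 21, 63.8, 57.3 and 61.9 at day 45, 65.9 at day 100, 64.2 at day 200, and 34.3, 30.8 and 65.0 in the knockouts (mice A, B and C here and below). Every mouse after Cre lay below every day 0 mouse. At day 45 Klkb1 was 2.12-fold lower (log2 −1.08, SE 0.25, adjusted p = 0.0067), a call that held without any 1 mouse (−1.19 to −1.03). At days 100 and 200 it was 1.99-fold lower (−0.99, SE 0.28, adjusted p = 0.016), and the call was lost without either of the late mice (−1.10 to −0.93 over all 5 fits without 1 mouse). F11 was at 39.2, 47.3 and 43.9 FPKM at day 0 and at 44.7, 41.7 and 35.6 at day 45, with overlapping groups (log2 −0.10, adjusted p = 0.71). In the knockouts it was at 34.0, 32.9 and 36.8 FPKM, below every day 0 mouse (−0.32, adjusted p = 0.10). No test compared the changes of these genes with each other.

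The promoters of Klkb1 and F11 are shown with those of Mbl2 and Fga, since Klkb1 had the largest fall that passed and Mbl2 rose at day 45, and F11 and Fga carry several matches to liver factor motifs. RefSeq promoter sequences (GRCm38.p6, 250 bases before to 50 after the start) were given for 29 of the 38 genes. Capitals mark exact matches, on either strand, to motifs written for HNF4 (CAAAGTCCA), HNF1 (GTTAATNAT), C/EBP (TTGCNNAA), FOXA (TGTTTAC) and the TATA box (TATAAA). The 250 bases before the start are printed 5′ to 3′ on the strand of the gene.
Klkb1: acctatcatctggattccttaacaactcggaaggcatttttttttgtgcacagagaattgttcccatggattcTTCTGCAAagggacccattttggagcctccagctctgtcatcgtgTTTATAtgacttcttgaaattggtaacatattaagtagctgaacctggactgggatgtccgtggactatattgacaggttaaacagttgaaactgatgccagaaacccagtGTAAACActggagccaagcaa
F11: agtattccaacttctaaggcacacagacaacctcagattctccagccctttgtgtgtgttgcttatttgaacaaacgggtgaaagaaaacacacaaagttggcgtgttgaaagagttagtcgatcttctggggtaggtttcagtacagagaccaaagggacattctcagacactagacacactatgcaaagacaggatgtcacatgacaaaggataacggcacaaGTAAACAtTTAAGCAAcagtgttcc
Fga: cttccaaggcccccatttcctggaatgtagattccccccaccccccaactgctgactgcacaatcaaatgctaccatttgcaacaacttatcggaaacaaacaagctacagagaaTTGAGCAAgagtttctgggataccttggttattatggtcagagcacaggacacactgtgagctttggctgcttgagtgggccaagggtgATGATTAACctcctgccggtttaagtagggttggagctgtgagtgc
Mbl2: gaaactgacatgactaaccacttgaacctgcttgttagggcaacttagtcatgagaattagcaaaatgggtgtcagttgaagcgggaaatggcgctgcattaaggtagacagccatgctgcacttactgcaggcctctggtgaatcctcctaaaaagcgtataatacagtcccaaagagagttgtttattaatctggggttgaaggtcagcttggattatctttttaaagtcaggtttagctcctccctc

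These windows are chr8:45294836-45295085 on the minus strand for Klkb1, chr8:45262032-45262281 minus for F11, chr3:83025903-83026152 plus for Fga and chr19:30232678-30232927 plus for Mbl2. Klkb1 and F11 both held the letters GTAAACA, the FOXA motif on the opposite strand, 21 and 25 bases before the start. F11 also held a C/EBP match 17 bases before it, and Klkb1 a C/EBP match at 177 and TATAAA on the opposite strand at 132 bases. Fga held an HNF1 match at 46 and a C/EBP match at 135 bases. Mbl2 held none of the 5 motifs, which says only that these letters are not in this window. Across the 29 promoters the C/EBP letters were found in 34.5% (10.8% of 27025 promoters in the table), the FOXA letters in 6.9% (3.55%), the HNF1 letters in 6.9% (0.836%), TATAAA in 13.8% (14.2%) and the HNF4 letters in none (0.477%). A match is a description of the letters and not a site.

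Among the vitamin K-dependent zymogens F2 (prothrombin), F7, F9 and F10, all 4 had negative changes at every time after Cre. F10, the factor at which the intrinsic and extrinsic arms meet, was at 313, 245 and 319 FPKM at day 0, 205.5, 206.3 and 206.1 at day 45, 168 at day 100 and 180.1 at day 200. It was called lower at days 100 and 200 (1.66-fold, log2 −0.74, SE 0.20, adjusted p = 0.015), and not without day 0 C, the day 100 mouse or the day 200 mouse (−0.86 to −0.67 without 1 mouse). The values of F2 were 1259.7, 1089 and 1289 FPKM at day 0 and 889, 838 and 878 at day 45, with no overlap (−0.48, adjusted p = 0.08). F7 and F9 had changes of −0.53 and −0.72 at day 45 that did not pass.

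None of the remaining genes of the contact system and the fibrin clot passed the test after Cre. F12, which starts the contact system, had a log2 fold change of 0.00 at day 45, and Kng1, the precursor of bradykinin, of −0.39; neither passed. Kng1 has a close copy, Kng2, so its level is uncertain. F5, the cofactor of factor Xa, was at 81.1 to 119 FPKM at day 0 and 95.9 to 101 at day 45. The fibrinogen chains Fga, Fgb and Fgg, which lie together on chromosome 3, had changes of −0.49, −0.51 and −0.59 at day 45, and F13b, the carrier subunit of the clot-stabilizing transglutaminase, of −0.54. All 3 day 45 mice were below day 0 for Fgb, Fgg and F13b but not for Fga, which had a day 0 mouse at 1696 FPKM; none passed the test.

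Of the genes of fibrinolysis, Plg and Cpb2 fell at day 45. Plg, the zymogen of plasmin, was at 1404, 1159 and 1386 FPKM at day 0, 913, 923 and 767 at day 21, 818, 739 and 649 at day 45, 746 at day 100 and 850.1 at day 200. Each of the 8 mice after Cre lay below the day 0 mice. The fall was 1.52-fold at day 21 (log2 −0.60, SE 0.16, adjusted p = 0.040), 1.79-fold at day 45 (−0.84, SE 0.16, adjusted p = 0.0027) and 1.65-fold at days 100 and 200 (−0.72, SE 0.18, adjusted p = 0.0089). The day 45 call held without any 1 mouse (−0.93 to −0.75). The late call was lost without the day 100 mouse (adjusted p = 0.099), and that of day 21 without any 1 of its 6 mice (−0.69 to −0.51).

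Cpb2, which encodes a carboxypeptidase that slows fibrinolysis, was at 338, 357 and 369.8 FPKM at day 0 and 235, 252 and 250.1 at day 45 (1.44-fold lower, log2 −0.53, SE 0.17, adjusted p = 0.035). The groups did not overlap, and the change was −0.56 to −0.50 without any 1 mouse, with the call lost each time (adjusted p up to 0.099). Serpinf2, the plasmin inhibitor antiplasmin, had a change of −0.71 at day 45 (adjusted p = 0.06), and Hrg, a plasma protein that binds plasminogen and heparin, of −0.13.

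Of the vitamin K-dependent anticoagulants Proc, Pros1 and Proz, none passed the test after Cre. Proc (protein C) was at 412, 333 and 370.3 FPKM at day 0 and 272, 241 and 303 at day 45, and Proz at 169, 154 and 192 against 162, 142 and 133; neither passed. Pros1, the cofactor of protein C, was one of few genes of the set above day 0 in every mouse after Cre, with 22.5, 25.0 and 24.6 FPKM at day 0, 25.8, 30.4 and 29.6 at day 21, 25.7, 35.8 and 27.5 at day 45, 33.2 at day 100 and 31.8 at day 200. Its change at day 45 was 0.28 (adjusted p = 0.35). Among the serpins, Serpind1 (heparin cofactor II) was at 434, 359 and 475 FPKM at day 0 and 315, 278 and 289 at day 45 (1.43-fold lower, −0.51, SE 0.17, adjusted p = 0.039). That call was kept only without day 0 B, and lost without each of the other 5 mice, and the change was −0.63 to −0.42 over all 6 of these fits (adjusted p up to 0.14). Serpinc1 (antithrombin) had a change of −0.34 and Serping1 (C1 inhibitor) of −0.55 at day 45, both short of the threshold.

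In the lectin pathway of complement, the mannose-binding lectins Mbl1 and Mbl2 had changes of opposite sign at days 21 and 45. At days 100 and 200 both changes were negative. Mbl1 was at 385, 319 and 322 FPKM at day 0, 199, 216 and 223 at day 21, 224, 177 and 207 at day 45, 192 at day 100 and 219 at day 200. No mouse after Cre reached a day 0 mouse. Mbl1 was 1.60-fold lower at day 21 (log2 −0.68, SE 0.16, adjusted p = 0.022), 1.69-fold at day 45 (−0.75, SE 0.16, adjusted p = 0.0042) and 1.66-fold at days 100 and 200 (−0.73, SE 0.18, adjusted p = 0.0074). The day 45 call held without any 1 mouse (−0.83 to −0.66). The late call was lost without the day 100 mouse (adjusted p = 0.090), and that of day 21 without any 1 of its mice but day 0 C (−0.73 to −0.59 over all 6 fits).

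Mbl2, on chromosome 19 (mm9 chr19:30307446-30314172), was at 1014, 324 and 830.3 FPKM at day 0, 1532, 1825 and 1391 at day 21, 1499, 1283 and 1584 at day 45, 459 at day 100 and 258 at day 200, and 403, 425 and 219 in the knockouts. All mice of days 21 and 45 were above all day 0 mice, while both late mice and the 3 knockouts were below day 0 A and C, on either side of day 0 B. At day 45 Mbl2 was 2.23-fold higher (log2 1.16, SE 0.39, adjusted p = 0.044). The lowest day 0 mouse, B, holds Y-linked transcripts. Without it the change was 0.66 and the call was lost. Without the 4 libraries with Y-linked transcripts the change was 0.60 (adjusted p = 0.12). With Y-linked transcripts as a covariate the change was 1.16 and passed (adjusted p = 0.017). After GC correction it was 0.95, which passed with that covariate (adjusted p = 0.044) and not without it (adjusted p = 0.094). The call was also lost without day 0 C or any day 45 mouse (0.66 to 1.48 without any 1 mouse). Between day 45 and days 100 and 200 the log2 difference was −2.07 (SE 0.44, adjusted p = 0.098, with 0.0353% of all genes lower and 0.194% higher in that comparison, 0.229% together). It was −2.28 with Y-linked transcripts as a covariate and −2.01 without the 4 libraries, and passed the threshold in both. No other gene of the 38 passed there under any of the alternatives.

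**Figure D3:**
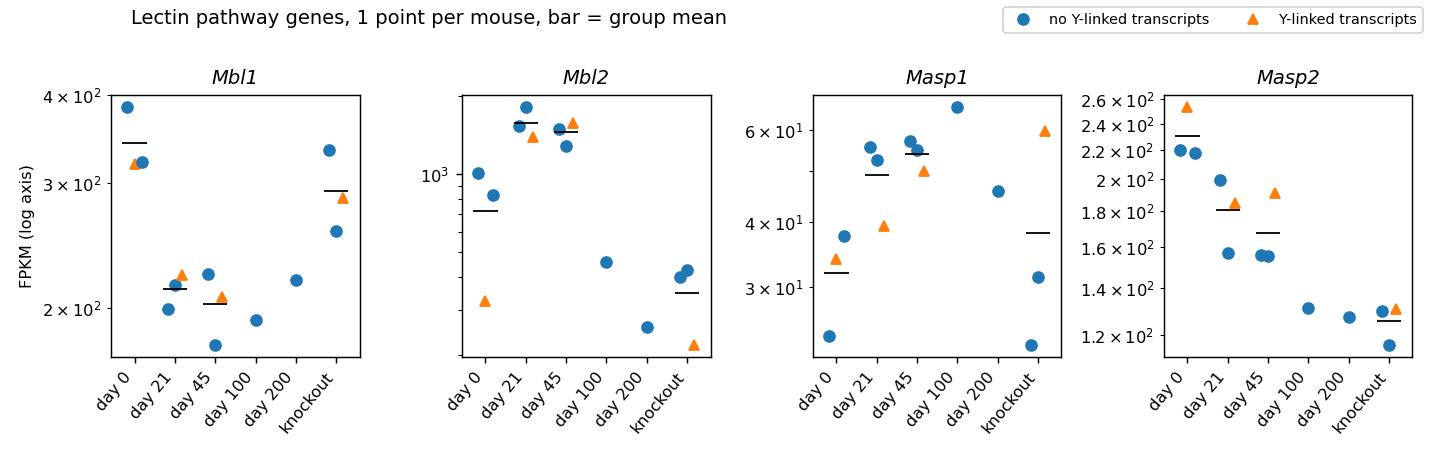
FPKM (log axes, 1 panel per gene) of the lectin pathway genes Mbl1, Mbl2, Masp1 and Masp2 in every liver; triangles are livers with Y-linked transcripts and bars are group means. Mbl1 and Masp2 lie below day 0 after Cre, Mbl2 is at 1283 to 1825 FPKM at days 21 and 45 and at 258 and 459 later, and Masp1 lies above day 0.

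Of the lectin-bound proteases, Masp2 fell and Masp1 did not pass the test. Masp2, which cleaves C4 and C2, was at 220.3, 254 and 218 FPKM at day 0, 156.2, 155.6 and 191 at day 45, 131 at day 100 and 127 at day 200. It was 1.38-fold lower at day 45 (log2 −0.46, SE 0.15, adjusted p = 0.037), a call lost without any 1 of the mice but day 45 C (−0.56 to −0.39 over all 6 fits), and 1.77-fold lower at days 100 and 200 (−0.83, SE 0.17, adjusted p = 0.0025), a call that held without any 1 mouse (−0.87 to −0.76). Masp1 was at 24.2, 34.0 and 37.6 FPKM at day 0 and 57.1, 54.9 and 49.9 at day 45, with no overlap (0.76, adjusted p = 0.076), and at 66.4 and 45.8 at days 100 and 200.

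The classical and alternative pathway genes C2, C4b, C3, Cfb and Cfi did not pass the test at any of the 3 times after Cre. C3, on which all pathways meet, was at 2152, 1431 and 2607 FPKM at day 0 and 2459, 2743 and 2235 at day 45. C2 had changes of 0.41, 0.36 and 0.53, and Cfb, the alternative pathway protease, of −0.15, −0.07 and 0.02 at days 21, 45 and late. Cfi, which degrades C3b and C4b, was at 502, 394 and 559.7 FPKM at day 0 and 347.9, 348.4 and 368 at day 45 (−0.44, adjusted p = 0.07). C4b has a near-identical copy, C4a, so reads of the pair may have been divided by the authors' counting and their values are uncertain.

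The terminal complement genes C6, C8a, C8b and C9 differed between the libraries within a group: in each of the 4 groups with 3 mice, the library with Y-linked transcripts was the highest for all 4 genes. C6 was at 7.05, 209 and 13.4 FPKM at day 0, 12.6, 17.3 and 131 at day 21, 21.7, 37.2 and 155 at day 45, 37.2 at day 100, 21.5 at day 200, and 32.3, 38.9 and 66.6 in the knockouts. The library with Y-linked transcripts had 20.5 times the mean of the other day 0 mice, 8.76 times at day 21, 5.28 times at day 45 and 1.87 times in the knockouts. C9, which forms the ring of the membrane attack complex, was at 187, 522 and 221 FPKM at day 0, 71.9, 88.8 and 238 at day 21, 81.1, 128 and 191 at day 45, 141 at day 100, 172 at day 200, and 47.0, 47.0 and 168 in the knockouts. C8a was at 138, 386 and 162 FPKM at day 0 and C8b at 133, 335 and 155, and day 0 B was the highest for both. C8a and C8b are neighbors on chromosome 4, and C6 and C9 lie on chromosome 15 (mm9 chr15:4677209-4754045 and chr15:6395332-6448476).

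With presence of Y-linked transcripts added to the fit, all 4 were higher in those libraries, by log2 2.66 for C6 (SE 0.41, adjusted p = 0.0058), 1.16 for C8a (SE 0.15, adjusted p = 0.0016), 1.08 for C8b (SE 0.15, adjusted p = 0.0034) and 1.41 for C9 (SE 0.16, adjusted p = 0.00086). Across all genes 0.67% were higher and 0.855% lower. F7 (−0.60, SE 0.11, adjusted p = 0.020) and Serpinf2 (−0.54, SE 0.12, adjusted p = 0.044) were lower there, and the lowest of their 3 mice in all 4 groups. The third chain of C8, C8g, which is encoded on another chromosome, was above both other mice at days 21 and 45 and below both at day 0 and in the knockouts. Each group has 1 such library, so the 4 groups are the replicates of this comparison, and age, batch or other differences of these mice are not known.

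**Figure D4:**
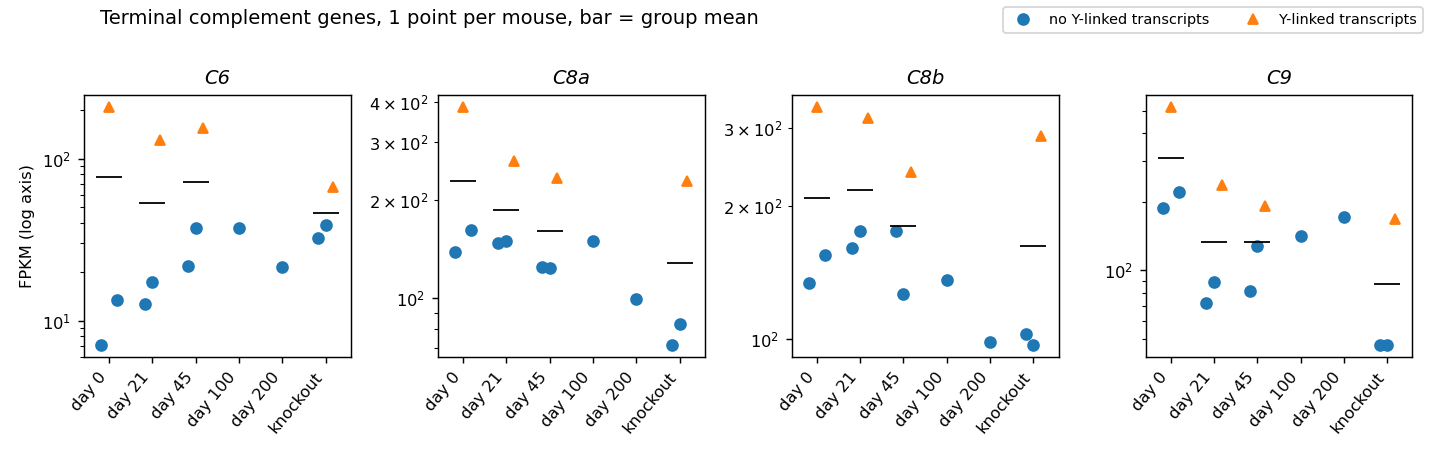
FPKM (log axes, 1 panel per gene) of the terminal complement genes C6, C8a, C8b and C9 in every liver; orange triangles are livers with Y-linked transcripts, blue circles are livers without, and bars are group means. In each group of 3 the triangle is the highest point, and for C6 the circles range from 7.05 to 38.9 FPKM and the triangles from 66.6 to 209.

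Because of these libraries the changes of terminal complement after Cre had wide errors. The log2 fold change of C9 at day 45 was −1.14 with an SE of 0.57 (adjusted p = 0.17), and with Y-linked transcripts as a covariate it passed the threshold, as did F2, F7, F10 and Serpinf2, for 11 lower genes, against 3.83% of all genes. Without the 4 libraries 17 genes were lower at day 45 and 2 higher, Masp1 (0.87) and C6 (1.45), while Mbl2 was not called; of all genes 4.78% were lower and 24.9% higher. C8g was at 658, 504 and 512 FPKM at day 0, 429, 325 and 436 at day 45, 233 at day 100 and 406 at day 200. It fell 1.80-fold at days 100 and 200 (−0.85, SE 0.27, adjusted p = 0.030), which was lost without day 0 A or the day 100 mouse (−0.45 without the latter). Vtn, vitronectin, which blocks membrane attack and binds plasminogen activator inhibitor, was at 1890.4, 1616 and 1906 FPKM at day 0 and 1141, 1082 and 1444 at day 45 (−0.57, adjusted p = 0.07).

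In the germline knockout 11 genes were lower and 1 higher than at day 0, where 14.5% of all genes were lower and 19.4% higher (33.9% together). The lower genes were F13b, C9, Klkb1, F9, F5, Masp2, Cfi, Cpb2, Pros1, Serpind1 and Plg, and C2 was higher. With only the knockout and day 0 groups fitted, 2 of the 38 were lower and 0 higher. The share of all genes called in that fit was not computed. The median of the 38 was −0.33 and that of all genes 0.02. All 3 knockouts were below day 0 for 15 of the 38 genes and above it for 1, C2, against 13.3% and 21.1% of all genes. For F13b, F9, C9 and F5 the lowest values were those of mice A and B. F13b was at 15.3 and 23.1 FPKM in knockouts A and B but 106 in C, beside 145, 118 and 159.9 at day 0 (4.05-fold lower, log2 −2.02, SE 0.50, adjusted p = 0.011). F9 was at 20.1 and 24.3 FPKM in A and B and 82.6 in C, beside 104, 96.7 and 108 at day 0 (2.93-fold lower, −1.55, SE 0.38, adjusted p = 0.010). C9 gave 3.83-fold (−1.94, SE 0.57, adjusted p = 0.023), and F5, at 28.8, 40.9 and 67.6 FPKM, 2.33-fold (−1.22, SE 0.27, adjusted p = 0.0059).

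Those genes have low GC content. F9 has 39.0% GC over its longest coding transcript, F13b 41.3%, C9 43.3% and F5 46.2%, where the median of the 38 was 48.5%. Across the 38 genes, as a description, Spearman's rho of the difference from day 0 with GC was 0.80 in knockout A, 0.73 in B and −0.21 in C. In the other libraries it was −0.40 (day 0 B) to 0.51 (day 0 A). The 19 genes of lower GC had median differences of −0.89, −0.81 and −0.28 in A, B and C, and the 19 of higher GC of 0.13, 0.02 and −0.45. C4b, at 265 and 265 FPKM in A and B and 95.2 in C, has 55.3% GC, and its copy C4a was at 38.5, 36.2 and 1.90. At day 0 C4b was at 112, 124 and 126 FPKM and C4a at 0.885, 5.64 and 1.09. The part of GC in the values of this pair was not tested. C2, the gene called higher (1.65-fold, 0.72, SE 0.20, adjusted p = 0.018), was at 94.0, 99.7 and 72.4 FPKM against 46.0, 62.1 and 51.6 at day 0, and has 52.5% GC.

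**Figure D5:**
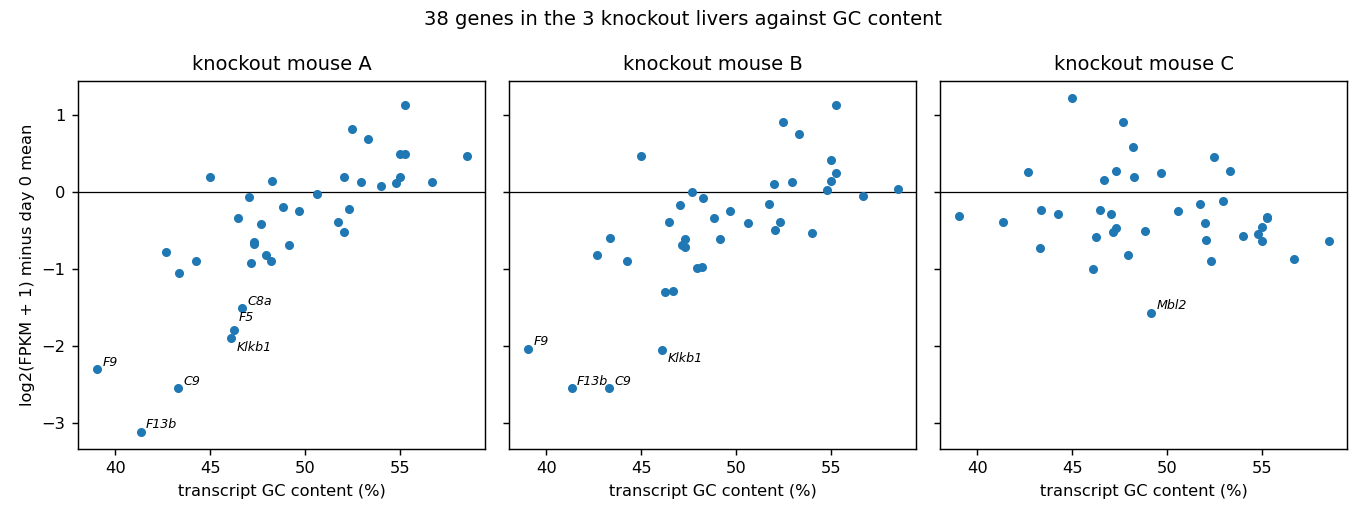
Difference of log2(FPKM + 1) from the day 0 mean against transcript GC content for the 38 genes, 1 panel per knockout liver; genes that differ by over 1.3 are named. The points slope upward in mice A and B (rho 0.80 and 0.73) and not in mouse C (−0.21).

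Without mice A and B, 3 genes were lower in the single remaining knockout, whose spread was taken from the other groups: Klkb1 (−0.99, adjusted p = 0.031), Masp2 (−0.81, adjusted p = 0.036) and Proc, against 1.95% of all genes. The changes in that fit were −0.31 for F9, −0.40 for F13b, −0.59 for F5 and −0.73 for C9. Knockout C holds Y-linked transcripts, and C9 was higher in such libraries. With all mice kept and Y-linked transcripts as a covariate, the knockout change of C9 was −1.94 (SE 0.22, adjusted p = 0.00012). F9, F13b and F5 also passed with that covariate. After removal of the GC relation from every library, Klkb1 (−1.37), Masp2 (−0.73), F9 (−0.87), F5 (−0.96), F13b (−1.46), C9 (−1.50), Cfi (−0.51), Plg (−0.71) and C2 (0.53) passed, and Cpb2 (−0.31), Serpind1 (−0.42) and Pros1 (−0.19) did not. F2, F12, Proc and Serping1 were also lower in that setting. The GC-corrected comparison called 16.5% of all genes lower and 18.9% higher (35.4% together). Klkb1 (3.13-fold lower, −1.64, SE 0.25, adjusted p = 0.00083) and Masp2 (129.9, 116 and 131 FPKM, 1.83-fold lower, −0.87, SE 0.15, adjusted p = 0.0016) thus passed in each of these settings, and without any 1 mouse.

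The other knockout calls were smaller. Cfi fell 1.64-fold (log2 −0.71, adjusted p = 0.0084), Cpb2 1.62-fold (−0.69, adjusted p = 0.0097), Pros1 1.54-fold (−0.63, adjusted p = 0.028), Serpind1 1.53-fold (−0.62, adjusted p = 0.017) and Plg 1.46-fold (−0.54, adjusted p = 0.023). Calls without 1 mouse were lost for F9, F13b and Cpb2 without knockout B (adjusted p = 0.055, 0.056 and 0.055), and for C9 without day 0 B, knockout A or knockout B (−2.54 to −1.49 over all 6 fits). They were lost for C2 and Plg without day 0 A, day 0 C, knockout A or knockout B, for Pros1 without day 0 B, day 0 C, knockout A or knockout B, and for Serpind1 without day 0 C, knockout A or knockout B. In all, 7 genes were lower without knockout A, 4 without knockout B and 15 without knockout C, against 5.69%, 4.97% and 30.8% of all genes. In the knockouts 5 of 6 cholangiocyte, 6 of 10 stellate and fibroblast, 6 of 10 lymphocyte and 5 of 11 macrophage markers were higher, while of 10 endothelial markers none was higher and 2 were lower. Of the acute phase genes 7 of 16 were higher and none lower. Among all genes 19.4% were higher and 14.5% lower in the knockouts. The part of these markers in the results was not tested.

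Set directly against day 45, the knockout had F5 (2.24-fold, log2 −1.17, SE 0.27, adjusted p = 0.024), Pros1 (1.87-fold, −0.90, SE 0.20, adjusted p = 0.020) and Mbl2 (4.32-fold, −2.11, SE 0.39, adjusted p = 0.0090) lower and none higher, where 8.27% of all genes were lower and 1.21% higher (9.48% together). Mbl2 was lower without any 1 mouse (−2.28 to −1.81), without knockouts A and B (−2.72) and after GC correction (−1.85). The calls of F5 and Pros1 were lost without knockouts A and B (−0.53 and −0.51), and that of Pros1 after GC correction (−0.32). The call of F5 was lost without knockout A, knockout B or any day 45 mouse (−1.49 to −0.88 without 1 mouse), and that of Pros1 without knockout A, knockout B, day 45 B or day 45 C (−1.10 to −0.69). Without knockout C, 8 genes were higher and 10 lower, against 14.7% and 37.7% of all genes. Between day 45 and day 21 no gene of the 38 passed, where 0.3% of all genes were higher and none lower. By mice, 3 of the 38 were below and 1 above without overlap (2.85% and 27.9% of all genes). The late mice were below day 45 for 5 and above for 6 (7.59% and 23.7%), and the knockouts below day 45 for 5 and above for 5 (20.6% and 3.29%).

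Other genes of the same pathways, many of them made outside hepatocytes or acting at the cell surface, more often rose than fell at day 45. Of 73 listed, 57 could be tested, of which 26 rose and 6 fell, against 23.7% and 3.01% of all genes. On the log2(FPKM + 1) scale, which understates Plat for its low level, the largest rises were Gas6, a vitamin K-dependent ligand of Axl receptors (2.27, SE 0.38, adjusted p = 0.0013), Anxa2, a cell-surface receptor of plasminogen (2.21, SE 0.37, adjusted p = 0.0013) and Plat, tissue plasminogen activator (adjusted p = 0.0041), which was at 0.268 to 0.565 FPKM at day 0 and at 2.32, 12.6 and 4.73 at day 45. Gas6 went from 28.7, 12.2 and 23.3 FPKM at day 0 to 81.5, 142 and 90.8 at day 45. The largest falls were Hgfac, a serine protease that activates hepatocyte growth factor (−1.21, SE 0.31, adjusted p = 0.012), C1rl, a C1r-like protease (−1.04, SE 0.15, adjusted p = 0.00077) and Vkorc1, the vitamin K epoxide reductase that the vitamin K-dependent factors need (−0.87, SE 0.24, adjusted p = 0.018). Vkorc1 went from 502, 298 and 325 FPKM at day 0 to 204, 187 and 207 at day 45. By group, 9 genes of coagulation and its regulators rose and 4 fell of 20 tested, 5 of fibrinolysis rose and none fell of 8, and 12 of complement rose and 2 fell of 29.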

How the data were processed

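RNA-seq libraries of 14 mouse livers were used, and 11 small RNA libraries of the floxed groups for the miR-122 share. Poly-A RNA was sequenced from both ends and placed on mm9 with TopHat 2.0.14 by the authors, who deposited FPKM made with Cufflinks 2.2.1 (version also in the submitters' processing notes). Libraries were scaled by quartile and ribosomal, snoRNA and mitochondrial sequences were taken out. The deposited RPM of microRNAs, aligned by the authors with Bowtie 0.12.7, carry an added 1, which was subtracted before shares were taken. FPKM hold no fragment numbers, so depth is unknown and no count test was run. The table's 22308 rows for 21888 symbols were summed per symbol (224 symbols had more than 1), and 3 empty unlabelled columns were not used.

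One limma 3.58.1 fit (R 4.3.3, eBayes with trend) of 5 groups (day 0, day 21, day 45, days 100 and 200 joined, knockout) was made on log2(FPKM + 1) of the 11354 genes averaging 1 FPKM or more. Days 100 and 200 were joined since each is 1 mouse. A fold change on this scale understates changes of low genes, by several-fold for genes below 1 FPKM at day 0. In 22 genes, none among the 38, a 0 beside values of at least 10 FPKM was taken as missing. The Benjamini-Hochberg adjustment was made separately for every comparison. The fit was tested on simulated data. GC content came from the longest coding transcript of each gene in the NCBIM37 reference (the mm9 assembly), and the GC relation of each library was removed as a lowess curve (span 0.3) of its difference from the day 0 mean, which also removes a library's overall shift. Alternatives were other scalings, pseudocounts and filters, fits without single mice, a replicate block, and, added after the data were seen, the Y-linked and GC settings and the fit without knockouts A and B. Genes are named with full statistics where they passed, and other pathway genes by the 3 largest changes each way at day 45. Promoters printed are those of the largest fall and rise that passed at day 45, and 2 picked, after the matches were seen, from 5 that tied on the number of matches. Genes and lists were chosen with earlier results of these data known. Python 3.11.15, pandas 2.3.3, numpy 2.4.6, scipy 1.17.1 and matplotlib 3.10.9 made tables and figures. Whether the replicate letters pair mice is not known. Deviations of same-lettered mice from their group means correlated at −0.487 to 0.608, over 0.1 in 8 of 18 pairs. With 3 mice a group such deviations depend on each other, so the correlations cannot show presence or absence of pairing.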

Additional observations from a re-analysis of the deposited data

Results flagged for a closer look

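The effects of the knockout and of excision at day 45, each against the same day 0 mice, differed for 3 of the 38 genes, a share no higher than the 9.48% of all genes, in the direct comparison of the knockout with day 45 (limma, Benjamini-Hochberg adjustment over all genes). The log2 difference was −2.11 for Mbl2 (adjusted p = 0.0090), −1.17 for F5 (adjusted p = 0.024) and −0.90 for Pros1 (adjusted p = 0.020). All 3 knockout livers were below all 3 day 45 livers for each gene. Mbl2 lay at 219 to 425 FPKM in the knockouts and 1283 to 1584 at day 45, and F5 at 28.8 to 67.6 and 95.9 to 101. Without knockouts A and B the differences were −2.72, −0.53 and −0.51, and only that of Mbl2 passed. The ages of the knockout mice are not given in the labels, and the part of age in these differences was not tested.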

How the results depend on the processing

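The cause of the moves below was not tested. The medians of the late mice and of the knockout against day 45 were near 0 and changed sign under some settings. Counts are of the 38 genes at an adjusted p under 0.05. At day 21, lower genes (2) became 1 without a filter on low values, 4 with only those groups fitted, 1 with the replicate block, 8 with GC correction (5.38% of all genes), 12 with GC correction and Y-linked transcripts as covariate (6.44%), and 0 to 1 without 1 mouse. Higher genes (0) became 1 with the Y-linked covariate (7.2% of all genes), also with GC correction (9.96%). The median (−0.27) became −0.36 in both GC settings and −0.38 to −0.21 without 1 mouse. At day 45, higher genes (1) became 0 without a filter, with a mean of at least 10 FPKM, with median centering, with the replicate block and with GC correction, 2 without the 4 Y libraries, and 0 to 1 without 1 mouse. Lower genes (6) became 15 with median centering, 11 with the Y-linked covariate, 17 without the Y libraries, 21 and 24 in the GC settings (12.7% and 14.4% of all genes), and 3 to 7 without 1 mouse. The median (−0.46) became −0.67 with centering and −0.66 in both GC settings (−0.52 to −0.39 without 1 mouse). At days 100 and 200, higher genes (0) became 1 at the same sum, 3 with only those groups, and 3 without the Y libraries (34.1% of all genes). Lower genes (6) became 16 with centering, 14 without the Y libraries (5.79%), 24 and 26 in the GC settings (14.2% and 14.4%), and 1 to 8 without 1 mouse. The median (−0.39) became −0.30 at the same sum, −0.70 with centering, −0.66 and −0.68 in the GC settings, and −0.42 to −0.30 without 1 mouse. In the knockout, higher genes (1) became 0 with only those groups, 2 with the Y-linked covariate (21.5% of all genes), 3 without the Y libraries (28.7%), and 0 to 2 without 1 mouse. Lower genes (11) became 2 with only those groups, 3 without knockouts A and B, and 4 to 15 without 1 mouse. The median (−0.33) became −0.43 at the same sum. Between days 21 and 45 no gene passed (limma, 0 at an unadjusted p under 0.05), and the median (−0.11) became −0.26 with centering and −0.25 in both GC settings. Between day 45 and the late mice no gene passed (2 at an unadjusted p under 0.05), and 1 was lower with the Y-linked covariate, with or without GC correction, and without the Y libraries. The median (0.029) became −0.071 with centering, and −0.050 and −0.052 in the GC settings. Between the knockout and day 45, higher genes (0) became 1 without a filter, 1 with centering (1.47% of all genes) and 3 without the mean-variance trend. These higher genes became 4 with the Y-linked covariate (1.95%), 9 without the Y libraries (13.6%) and 4 and 5 in the GC settings (2.02% and 3.16%). They were 0 to 8 without 1 mouse. Lower genes (3) became 1 with only those groups or without knockouts A and B, 10 without the Y libraries (36.2%), and 1 to 10 without 1 mouse (1.45% to 37.7%). The median (0.02) became −0.10 at the same sum, 0.20 with centering, 0.15 without the Y libraries and 0.24 in both GC settings, and was −0.036 to 0.069 without 1 mouse, below 0 without day 45 B, knockout A or knockout B. Without knockouts A and B, lower and higher genes were 7 and 1 at day 21, 16 and 2 at day 45, and 10 and 2 at the late times. The replicate block changed no other count by over 1.5 times, and could not be fitted for days 100 and 200, which share no replicate number with day 0. FPKM carry no depth, so precision rests on 3 mice a group, and on 2 of different ages after Cre at the late times.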
